A study of Mus musculus with 18 samples.

Results

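The genes of oxidative phosphorylation were read in forebrain, midbrain and hindbrain of young mice. They were chosen by symbol alone among the protein-coding genes of GENCODE M21. For complex I the symbol begins with Nduf, then a, b, c, s or v and a digit. For complex III it begins with Uqcr, for complex IV with Cox4 to Cox8 and for ATP synthase with Atp5. The protein-coding genes of the mitochondrial genome were taken as well. This gave 92 of the 53468 genes in the count table, 79 in the nuclear genome and 13 in the mitochondrial genome. Of the nuclear genes, 35 were counted to complex I, 8 to complex III, 20 to complex IV (with Ndufa4 and Ndufa4l2) and 16 to ATP synthase. The rule does not take in every subunit of these complexes. Atp5o was not analysed here. The rule uses no measured value, though it was written with earlier results of these data known.

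Oxidative phosphorylation makes most of the ATP of neurons. Complexes I, III and IV of the inner mitochondrial membrane pass electrons from NADH to oxygen and pump protons outwards, and ATP synthase lets the protons back to make ATP. Some core subunits of complexes I, III and IV and of the proton channel of ATP synthase are encoded in mitochondrial DNA, which is transcribed from both strands as long precursors that are cut into single mRNAs, while the other subunits are encoded in the nucleus and imported. Several subunits of complex IV (cytochrome c oxidase) exist as isoforms, some of them best known from heart and skeletal muscle, such as Cox6a2, Cox7a1 and Cox8b.

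The samples came from 3 Fmr1CRE knock-in mice and 3 wild-type littermates, taken at P25 on a C57BL/6 background. The Fmr1CRE mice carry, through CRISPR/Cas9 editing, a change of 1 base in a regulatory element assigned to Fmr1 on the X chromosome. Forebrain, midbrain and hindbrain were dissected from each mouse and poly(A) RNA was sequenced, which gave 18 libraries with 22455512 to 28061185 counts on genes. Several mouse lines were made for the variant, and which line these mice came from is not given in the sources used here. Fmr1 itself was at 74.0 to 78.7 CPM (counts scaled to library size) in Fmr1CRE forebrain and 69.2 to 83.4 in wild-type forebrain, and the genotypes overlapped in midbrain and hindbrain as well, so Fmr1 does not check the labels.

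The region labels were set against marker genes. Tbr1, a marker of cortical neurons, was at 53.3 to 81.4 CPM in forebrain, 23.6 to 57.1 in midbrain and 0.165 to 0.830 in hindbrain. The 6 hindbrain markers summed to 12.7 to 22.9, 140 to 337 and 420 to 993 CPM in the same order. The midbrain libraries therefore held transcripts of forebrain genes such as Tbr1 and of cerebellar genes such as Gabra6 (33.3 to 93.9 CPM). Tbr1 and Gabra6 were chosen after their values were seen. Among the midbrain markers, Tcf7l2 was highest in midbrain (46.8 to 89.4 CPM, against 10.4 to 38.0 in forebrain and 3.67 to 7.43 in hindbrain), as were En1 and Pax7, whereas Tfap2b, Barhl2 and Pou4f1 had their highest library in hindbrain. The forebrain libraries of replicate 3 stood apart. Of the 10 genes that differed by more than 2 on the log2 scale between the replicate 3 mice with the same sign in midbrain as in hindbrain, 9 differed with the opposite sign in forebrain, against 3 of 11 for replicate 1 and 6 of 11 for replicate 2. With a gap of 1 the numbers were 35 of 45, 27 of 58 and 29 of 64. An exchange of these forebrain libraries between the genotypes was not tested further. Counts and medians that include forebrain are also given without both replicate 3 mice, except in the fits of 1 genotype alone, which were not repeated without them.

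Some members share nearly all of their sequence with other genes in the annotation, which decides where short reads are counted. A block of mitochondrial sequence copied into chromosome 1 (GRCm38 chr1:24611535-24616197, minus strand) holds 7 annotated genes that match mt-Nd4, mt-Nd4l, mt-Nd3, mt-Co3, mt-Atp6, mt-Co2 and mt-Co1. Of these 7 copies, 5 were identical to the mitochondrial gene over their whole aligned length, from 294 bases for Gm10222 against mt-Nd4l to 876 bases for Gm28439 against mt-Nd4. Gm28438 differed from mt-Nd3 in 1 of 345 aligned bases, T3C, where positions count from 1 at the first base of the mitochondrial gene, whose base is given first. The start of each is shown because reads of 50 bases from anywhere after that base in the aligned stretch cannot tell the gene from its copy, with the differing base in capitals (mt-Nd3 at chrM:9459-9501, plus strand, and Gm28438 at chr1:24613077-24613119, minus strand).

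mt-Nd3: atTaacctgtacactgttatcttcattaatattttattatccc

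Gm28438: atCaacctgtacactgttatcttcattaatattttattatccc

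Gm29216 matches the end of mt-Co1 (bases 1054 to 1545) and differed in 6 of 492 bases, all close to its start (T1056A, C1057T, A1059G, A1060G, C1062A and A1066T). Its first stretch (chr1:24616145-24616197, minus strand) is shown with that of mt-Co1 (chrM:6381-6433, plus strand), again with the differing bases in capitals.

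mt-Co1: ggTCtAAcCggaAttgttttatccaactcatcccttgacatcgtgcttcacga

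Gm29216: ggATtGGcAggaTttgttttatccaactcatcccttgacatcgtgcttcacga

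The counts were split unevenly between gene and copy. mt-Nd3 was given 158244 counts over the 18 libraries and its copy Gm28438 464639, or 2.94 for each count of mt-Nd3. mt-Co1 had 10403406 and Gm29216 2156231, and mt-Nd4 had 4130693 and Gm28439 931368. The copy of mt-Atp6, Gm10925, was given 194339 counts beside 6293914, and the copies of mt-Co2 and mt-Co3 874 and 66. Identical sequences thus received between 1.21e-05 and 0.225 counts for each count of the mitochondrial gene. Reads were assigned by the quantification and not by sequence here, so the levels of mt-Nd3, mt-Nd4 and mt-Co1 are lower bounds on what their sequence received.

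**Figure D1:**
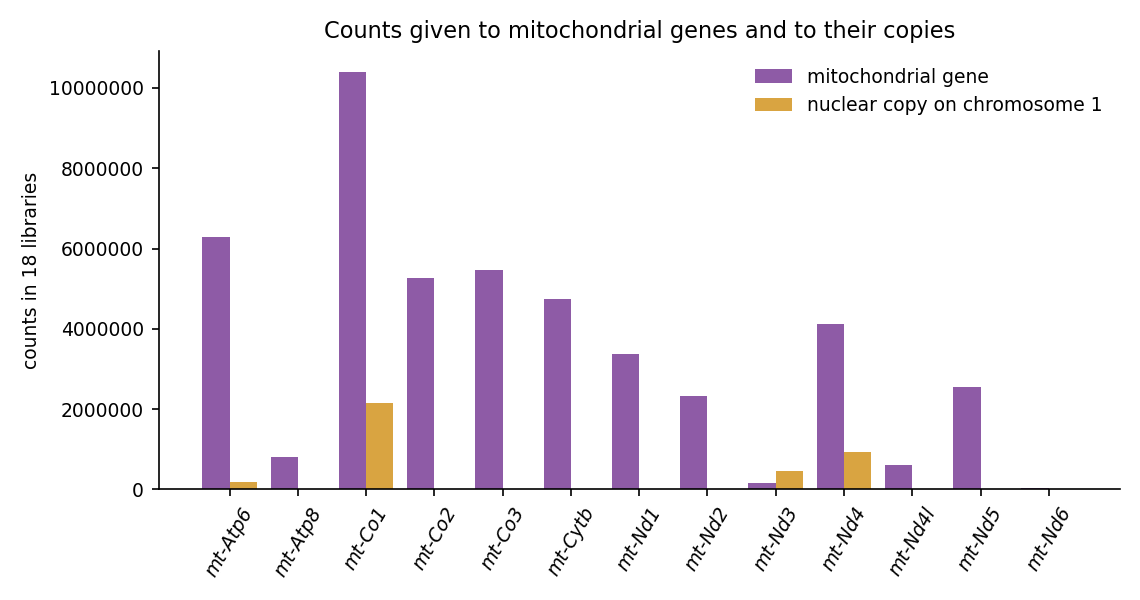
Counts summed over the 18 libraries (vertical axis) for each mitochondrial gene (purple bars) and for its copy on chromosome 1 (yellow bars, where there is one). mt-Co1 had the most counts, 10403406, and mt-Nd3 is the gene whose copy was given more counts than the gene itself, 464639 against 158244.

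Nuclear members had such copies too, mostly processed pseudogenes, and 33 copies were found in all by sharing at least 50% of a transcript's stretches of 31 bases with a member. Ndufb4, a complex I subunit, had 7177 counts while its copy Ndufb4c had 29750. Cox7c, a complex IV subunit, had 24090 counts beside 56395 for Gm12338 and 9538 for Gm10012. Atp5l had 23791 beside 60830 for Gm10221, and Atp5g2, which encodes the c subunit of the ATP synthase rotor, had 13351 beside 22473 for Gm10175. These 4 genes were thus counted mostly under another name, and their levels in CPM are uncertain for that reason. Adding the copies to their gene left 69 nuclear members called between hindbrain and forebrain, 22 between midbrain and forebrain and 71 between hindbrain and midbrain, close to the 68, 21 and 71 called without them, and the mitochondrial counts of calls did not move.

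The mitochondrial genes dominated these libraries. The 13 genes took 9.92% to 12.2% of all counts in forebrain (median 10.6%), 7.01% to 8.53% in midbrain (median 7.43%) and 9.48% to 12.8% in hindbrain (median 12.02%). With the copies added these shares were 10.7% to 13.2%, 7.61% to 9.20% and 10.2% to 13.7%. The 79 nuclear genes together took 0.907% to 1.09% in forebrain (median 0.935%), 0.872% to 1.01% in midbrain (median 0.938%) and 1.22% to 1.58% in hindbrain (median 1.37%). Every hindbrain library was above every forebrain and midbrain library in the nuclear share, whereas in the mitochondrial share every midbrain library was below the others and forebrain and hindbrain overlapped. For each count of a nuclear member there were 10.5 to 12.8 mitochondrial counts in forebrain, 7.71 to 8.53 in midbrain and 6.63 to 9.61 in hindbrain. In bulk tissue, fewer cells of a type and less RNA per cell cannot be told apart.

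**Figure D2:**
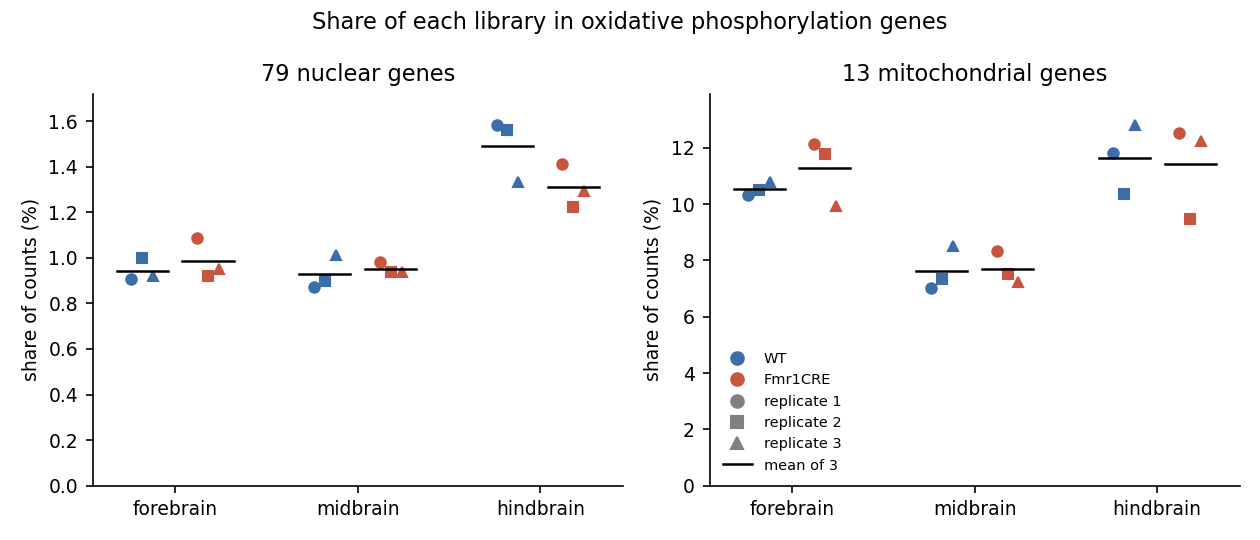
Share of each library's counts (vertical axis, percent) in the 79 nuclear genes (left) and the 13 mitochondrial genes (right), by region. Points are single libraries, colours the genotypes, shapes the replicate numbers and lines the means of 3. The nuclear share is highest in hindbrain, at 1.22% to 1.58%, and the mitochondrial share lowest in midbrain, at 7.01% to 8.53%.

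Levels were compared between genes per length, as CPM per kilobase of annotated transcript averaged over the 18 libraries. The order depends on this choice of length. Salmon's estimate of usable length was 10 bases for mt-Atp8, against 204 annotated, and 287 for mt-Atp6, against 681. Levels per usable length, which could order short transcripts otherwise, were not computed. Among the mitochondrial genes mt-Atp6 was highest with 20048, followed by mt-Co2 with 16680, mt-Co3 with 15099 and mt-Co1 with 14653. The order below mt-Atp6 holds only without the copies, since with the counts of Gm29216 added mt-Co1 was at 17671, above mt-Co2 with 16682 and mt-Co3 with 15099. The lowest were mt-Nd3 with 981, most of whose sequence was counted as Gm28438, and mt-Nd6 with 160. mt-Nd6 is the only protein-coding gene on the other strand of mitochondrial DNA, and the strand setting of the counting is not given in the sources used here. Among the nuclear genes the highest were Cox4i1 with 971, Atp5b, the catalytic subunit of ATP synthase, with 750, Ndufa4 with 612, Cox6b1 with 604 and Cox8a with 560. The lowest of those tested were isoforms, Cox7b2 with 0.547, Cox4i2 with 1.62, Ndufa4l2 with 1.81, Cox8b with 1.94 and Cox6a2 with 4.58. Cox8c had 0 counts in all 18 libraries, and 78 nuclear members passed the filter on low counts over all libraries, as did the 13 mitochondrial ones.

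Regions were compared first, hindbrain against forebrain, over all 18 libraries with edgeR's quasi-likelihood test and Benjamini-Hochberg adjustment over all genes tested, where a gene was called at an adjusted p under 0.05. Of the 78 nuclear members tested, 66 were higher in hindbrain and 2 lower. At this threshold 51.7% of all 20363 genes were called, 25.3% higher in hindbrain and 26.4% lower. The median log2 fold change of the nuclear members was 0.46, against 0.0085 over all genes, and 73 of the 78 were above 0, against 50.7% of all genes. For 53 nuclear members the 6 hindbrain libraries were all above the 6 forebrain libraries, and for 2 all below, against 13.0% and 14.7% of all genes. Without both replicate 3 mice 68 nuclear members were called, with a median of 0.51. The mitochondrial members had a median of -0.025, and 1 of the 13 was called.

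The rise in hindbrain ran through all 4 complexes. In complex I 33 of the 35 members rose, among them Ndufv2, an iron-sulphur subunit of the NADH-binding module. Ndufv2 was at 133, 147 and 161 CPM in forebrain (lowest, median and highest of 6) and at 208, 249 and 261 CPM in hindbrain. The regions did not overlap, and Ndufv2 was higher in hindbrain by 0.74 ± 0.079 on the log2 scale (SE, adjusted p = 1.01e-06). All 7 nuclear core subunits of complex I were among those called. In complex III 7 of 8 rose, and in ATP synthase 15 of 16, with 4 of the 5 subunits of its catalytic head. Atp5b was at 914, 967 and 997 CPM in forebrain and at 1244, 1363 and 1464 CPM in hindbrain. These ranges lay apart, with a log2 fold change of 0.49 ± 0.051 (edgeR adjusted p = 8.31e-07). Complex IV was the most mixed, with 11 of 19 tested subunits higher and 2 lower. The 10 nuclear members that were not called were Ndufa8, Ndufb9, Ndufa4l2, Uqcr11, Cox4i1, Cox4i2, Cox6a1, Cox7b2, Cox7c and Atp5d.

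**Figure D3:**
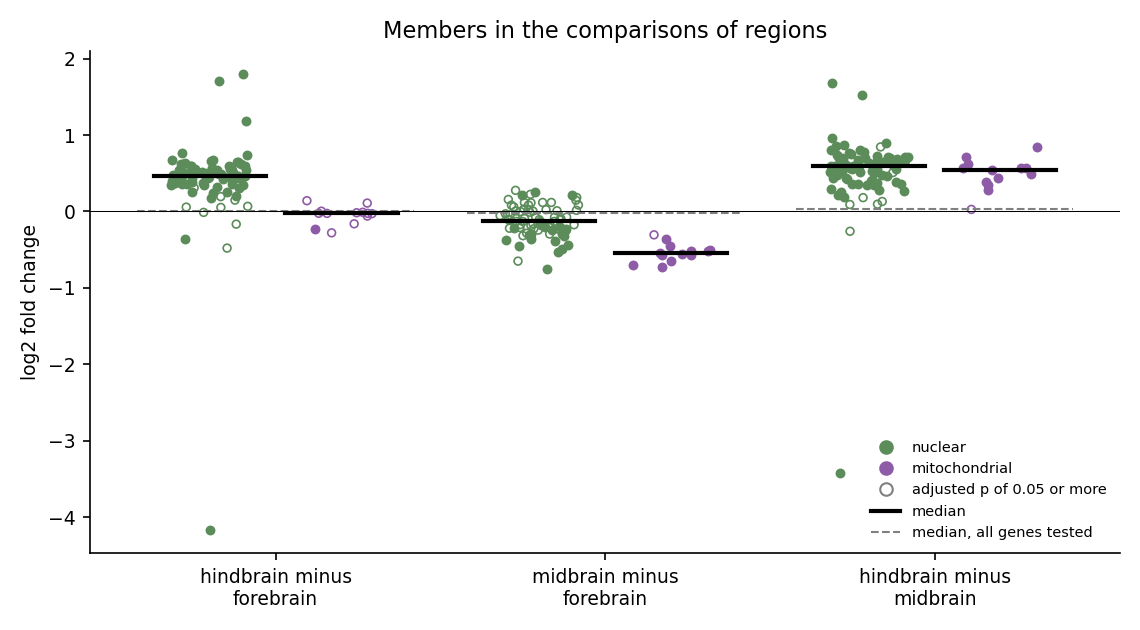
Log2 fold change (vertical axis) of each nuclear (green) and mitochondrial (purple) member in the 3 comparisons of regions. Filled points passed an adjusted p of 0.05, black lines are medians of the members and dashed lines medians of all genes tested. The nuclear medians are 0.46, -0.13 and 0.59 and the mitochondrial medians -0.025, -0.54 and 0.55 from left to right. The 2 lowest points are Cox6a2.

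The largest rises in hindbrain were in isoforms of low level, Cox7a1 (GRCm38 chr7:30184144-30186078, plus strand), Cox8b (chr7:140898945-140900446, minus strand) and Cox6b2 (chr7:4751792-4753094, minus strand). Cox7a1 was at 1.23, 1.45 and 1.88 CPM in forebrain and at 3.64, 5.04 and 7.19 CPM in hindbrain, a log2 fold change of 1.80 ± 0.21 (adjusted p = 3.06e-06). Cox8b was at 0.282, 0.374 and 0.554 CPM in forebrain and at 1.01, 1.32 and 1.59 CPM in hindbrain (log2 fold change 1.70 ± 0.23, adjusted p = 1.55e-05). Both are the forms that heart and skeletal muscle use, and neither overlapped between the regions. Cox6b2, known from testis, was at 1.83, 2.22 and 3.51 CPM in forebrain and at 3.75, 5.73 and 6.56 CPM in hindbrain (log2 fold change 1.18 ± 0.18, adjusted p = 3.76e-05). Cox7b, a subunit expressed in all tissues, was at 86.3, 164 and 169 CPM in forebrain and at 220, 248 and 317 CPM in hindbrain (0.76 ± 0.15, adjusted p = 0.000369).

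The 2 that fell were Cox6a2 (GRCm38 chr7:128205435-128206387, minus strand) and Cox8a (chr19:7215153-7217616, minus strand). Cox6a2 was at 4.65, 5.68 and 6.35 CPM in forebrain and at 0.231, 0.256 and 0.514 CPM in hindbrain. The ranges lay far apart and the log2 fold change, -4.17 ± 0.20 (adjusted p = 1.05e-10), was the largest of any member in this comparison. Cox6a2 had 6 to 13 counts in each hindbrain library, near the floor, and 113 to 161 in forebrain. The size of its fall in hindbrain thus rests on few counts. Of the stretches of 31 bases of Cox6a2, 6.15% also lie in the gene Itgad. Cox8a, the form of subunit 8 that most tissues use, was at 335, 372 and 398 CPM in forebrain and at 257, 280 and 319 CPM in hindbrain (-0.36 ± 0.068, adjusted p = 0.000341). This call was lost with the wild-type libraries alone.

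Of the mitochondrial members mt-Nd5, a proton-pumping subunit of complex I, was lower in hindbrain. It was at 5871, 6514 and 7123 CPM in forebrain and at 4600, 5496 and 6818 CPM in hindbrain, so the regions overlapped, with a log2 fold change of -0.23 ± 0.083 (adjusted p = 0.0254). The call was lost in 7 alternatives, among them without Fmr1CRE replicate 2, Fmr1CRE replicate 3, wild-type replicate 1 or wild-type replicate 2. Without both replicate 3 mice 2 mitochondrial members were called, and without wild-type replicate 3 also 2. Of the other 12 genes, mt-Co1 for example was at 24722, 25463 and 29290 CPM in forebrain and at 18990, 23652 and 27903 CPM in hindbrain, with wide overlap. The direction of those not called was not read, since the median of the 13 ran from -0.12 without both replicate 3 mice to 0.050 without Fmr1CRE replicate 2.

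Midbrain differed from forebrain mainly in the mitochondrial genes. Of the 13, 12 were lower in midbrain and 0 higher, with a median of -0.54, while 19.3% of all genes were called, 9.38% lower in midbrain. For 11 of the 13 every midbrain library was below every forebrain library, against 5.10% of all genes. Of the 78 nuclear members 18 were lower and 3 higher (9.96% of all genes were higher), with a median of -0.13 against -0.023 over all genes. In 14 of them every midbrain library was below every forebrain library and in 2 above, against 5.10% and 5.35% of all genes. The count of nuclear calls was less stable than the mitochondrial one. It was 12 without Fmr1CRE replicate 2, 10 without wild-type replicate 1, 9 without wild-type replicate 2 and 17 without both replicate 3 mice, whereas the mitochondrial count was 11 or 12 with any 1 mouse left out and 12 without both replicate 3 mice.

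The fall took in mitochondrial genes of all 4 complexes. mt-Atp6, which forms the proton channel of ATP synthase, was at 14238, 15569 and 17371 CPM in forebrain and at 8734, 9070 and 10847 CPM in midbrain, a log2 fold change of -0.73 ± 0.11 (adjusted p = 0.000194). mt-Co1, the catalytic subunit of complex IV, was at 16867, 17974 and 19537 CPM in midbrain, below every forebrain library (-0.54 ± 0.091, adjusted p = 0.000625). mt-Cytb, the core of complex III, was at 10590, 11514 and 13052 CPM in forebrain and at 7264, 7775 and 8352 CPM in midbrain (-0.57 ± 0.081, adjusted p = 0.000166). None of these 3 overlapped between the regions. In complex I, mt-Nd3 was at 337, 374 and 448 CPM in forebrain and at 190, 224 and 276 CPM in midbrain (-0.70 ± 0.14, adjusted p = 0.00226), and mt-Nd5 at 4364, 4647 and 4705 CPM in midbrain (-0.52 ± 0.083, adjusted p = 0.000429). mt-Nd4l had the smallest called change, at -0.36 ± 0.10 (adjusted p = 0.0232), and its call was lost in 7 alternatives, those without Fmr1CRE replicate 1, 2 or 3 or wild-type replicate 1 or 2 among them. The log2 fold changes of the other 6 called genes lay between mt-Co3 with -0.65 and mt-Nd4 with -0.45. mt-Nd6 was not called and overlapped, at 74.5, 92.1 and 124 CPM in forebrain and at 63.7, 71.5 and 113 CPM in midbrain.

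Among the nuclear genes complex IV had the most calls, with 9 lower of 19 tested and 0 higher. Complex I had 6 lower and 1 higher of 35, complex III 2 lower and 1 higher of 8, and ATP synthase 1 lower and 1 higher of 16. Cox6a1, the common form of subunit 6A, was at 246, 279 and 299 CPM in forebrain and at 180, 190 and 197 CPM in midbrain (-0.53 ± 0.075, adjusted p = 0.000168). Cox6a2, its muscle form, was at 2.53, 3.27 and 4.35 CPM in midbrain, below every forebrain library (-0.75 ± 0.16, adjusted p = 0.00446). Cox8a was at 239, 266 and 269 CPM in midbrain, again without overlap (-0.49 ± 0.068, adjusted p = 0.000142). Uqcr11, a small subunit of complex III, was at 104, 117 and 121 CPM in forebrain and at 78.9, 83.1 and 91.9 CPM in midbrain (-0.45 ± 0.069, adjusted p = 0.00034). Cox6c was at 206, 246 and 274 CPM in forebrain and at 165, 177 and 197 CPM in midbrain (-0.44 ± 0.083, adjusted p = 0.00181). These 5 were the nuclear genes with the largest falls among those without overlap.

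The 3 nuclear members that rose in midbrain were Atp5a1, Ndufs1 and Uqcrc2, of which Ndufs1 and Uqcrc2 were named after their values were seen. Atp5a1, the alpha subunit of the catalytic head of ATP synthase, was at 582, 654 and 680 CPM in forebrain and at 687, 766 and 825 CPM in midbrain, without overlap (0.26 ± 0.061, adjusted p = 0.00743). Without wild-type replicate 1 it was not called. Ndufs1, the largest core subunit of complex I, was at 124, 133 and 151 CPM in forebrain and at 133, 159 and 170 CPM in midbrain, with overlap (0.21 ± 0.068, adjusted p = 0.0383). Uqcrc2, a core protein of complex III, was at 146, 169 and 195 CPM in forebrain and at 189, 193 and 203 CPM in midbrain, also with overlap (0.21 ± 0.067, adjusted p = 0.0371). The call of Ndufs1 was lost in 10 alternatives and that of Uqcrc2 in 8, leaving out 1 of most of the mice among them. The fit with the mouse as a block lost Ndufs1.

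Hindbrain against midbrain moved nearly the whole set. Of the nuclear members 70 of 78 were higher in hindbrain and 1 lower, with a median of 0.59, while 49.1% of all genes were called, 24.0% higher and 25.1% lower. For 66 of the 78 every hindbrain library was above every midbrain library, against 10.9% of all genes, and in 1 all were below, against 16.0%. Of the mitochondrial members 12 of 13 were higher, with a median of 0.55, and 8 did not overlap. All 35 members of complex I and all 8 of complex III rose, as did 13 of 16 in ATP synthase and 14 of 19 in complex IV, where Cox6a2 fell. These comparisons use the same 6 hindbrain, 6 midbrain and 6 forebrain libraries in pairs, so they are not independent of each other.

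Ndufa4, a small subunit of complex IV that was long counted with complex I, rose most among the abundant genes. It was at 200, 208 and 255 CPM in midbrain and at 339, 402 and 453 CPM in hindbrain (0.90 ± 0.078, adjusted p = 1.98e-07). Cox7b was at 116, 139 and 165 CPM in midbrain and likewise higher in hindbrain (0.87 ± 0.15, adjusted p = 0.000144). The isoforms again had the largest changes. They were 1.68 ± 0.23 for Cox8b, 1.53 ± 0.21 for Cox7a1, 0.96 ± 0.18 for Cox6b2 and -3.42 ± 0.20 for Cox6a2, with adjusted p of 2.47e-05, 2.23e-05, 0.000319 and 2.19e-09. Of the mitochondrial genes mt-Nd3 rose by 0.84 ± 0.14 (adjusted p = 0.000127) and mt-Atp6 by 0.71 ± 0.11 (adjusted p = 5.07e-05). The smallest called rise was mt-Nd5 with 0.28 ± 0.083 (adjusted p = 0.00955), and mt-Nd6 was not called, at 59.99, 80.1 and 99.6 CPM in hindbrain. The calls of mt-Nd5 and mt-Nd4l were lost without both replicate 3 mice, and that of mt-Nd4l also without Fmr1CRE replicate 1.

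Cell types and RNA length moved with the regions. The 7 oligodendrocyte markers summed to 12905 to 16458 CPM in forebrain, 17016 to 20238 in midbrain and 29584 to 41528 in hindbrain, and the 3 markers of parvalbumin neurons to 176 to 229, 421 to 685 and 797 to 1025 CPM, with each region apart from the next. The 5 neuron markers summed to 2864 to 3618, 3204 to 3701 and 2878 to 3090 CPM. In the same order of regions astrocyte markers summed to 1050 to 1610, 1379 to 1637 and 1609 to 2423 CPM, and microglia markers to 204 to 300, 153 to 195 and 92.5 to 116 CPM. Choroid plexus markers summed to 367 to 869, 173 to 487 and 914 to 3247 CPM, and blood markers to 505 to 1546, 441.3 to 1020 and 1058 to 2706 CPM. Markers of the endothelium summed to 142 to 214, 112 to 143 and 118 to 164 CPM, and those of pericytes and mural cells to 158 to 210, 167 to 185 and 175 to 227 CPM. The markers of choroid plexus, blood, endothelium and pericytes and mural cells all had their lowest median in midbrain. In each of them midbrain overlapped with another region. The oligodendrocyte, parvalbumin and astrocyte markers had their lowest median in forebrain, and the neuron and microglia markers in hindbrain. The part of these cell types in the results was not tested.

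Most members have short transcripts, so they were split at the median transcript length of the nuclear members, 631 bases. Between hindbrain and forebrain 32 of 38 shorter and 34 of 40 longer nuclear members rose, with medians of 0.45 and 0.46. Over all protein-coding genes the medians were 0.28 for the 349 shorter and -0.020 for the 15667 longer ones. These sets include the members themselves, so they are not separate from them. Between midbrain and forebrain 14 of the 38 shorter members fell and 0 rose, with a median of -0.21, against -0.23 over all shorter protein-coding genes, while 4 of the 40 longer members fell and 3 rose, with a median of -0.064 against 0.010. Between hindbrain and midbrain the medians were 0.67 for the shorter and 0.44 for the longer members, against 0.48 and -0.025. The part of transcript length in these differences was not tested. Genes of cytosolic ribosomal proteins, which are short as well, had 18 higher and 6 lower of 78 between hindbrain and forebrain (median 0.12), 0 higher and 55 lower between midbrain and forebrain (median -0.31) and 71 higher and 0 lower between hindbrain and midbrain (median 0.39).

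Other genes of the same pathways were counted from lists. Complex II, which is encoded in the nucleus alone and feeds electrons from succinate, had 4 of 4 subunits higher in hindbrain than in forebrain, with a median of 0.42. Between midbrain and forebrain Sdha, its catalytic subunit, was higher (0.30 ± 0.076, adjusted p = 0.0126) and Sdhb, its iron-sulphur subunit, lower (-0.18 ± 0.058, adjusted p = 0.0401), and 3 of 4 were higher in hindbrain than in midbrain. Cycs and Cyc1, for cytochrome c and cytochrome c1, were both higher in hindbrain than in the other regions. Mitochondrial ribosomal proteins, which translate the 13 mitochondrial mRNAs, had 52 of 77 higher and 0 lower in hindbrain than in forebrain (median 0.29), 2 higher and 7 lower in midbrain than in forebrain (median -0.062) and 59 higher and 1 lower in hindbrain than in midbrain (median 0.39). Of 14 genes of mitochondrial DNA expression 7 were higher and 1 lower in hindbrain than in forebrain, 9 were higher than in midbrain, and between midbrain and forebrain only Lrpprc, which stabilises mitochondrial mRNAs, was called, with 30.98 to 56.2 CPM in forebrain and 62.0 to 80.3 CPM in midbrain (0.64 ± 0.12, adjusted p = 0.00181).

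Subunit isoforms differed in their order of regions. Cox6a2 was highest in forebrain, then midbrain, then hindbrain, with no overlap between neighbours. Cox7a1, Cox8b and Cox6b2 were highest in hindbrain, while their forebrain and midbrain libraries overlapped (Cox7a1 at 1.26, 1.96 and 2.46 CPM and Cox8b at 0.281, 0.392 and 0.582 CPM in midbrain). Of the common forms, Cox8a was highest in forebrain, with midbrain and hindbrain overlapping. Cox6a1 was lowest in midbrain and was at 217, 235 and 279 CPM in hindbrain, overlapping with forebrain and above midbrain (0.36 ± 0.075, adjusted p = 0.000859). Cox6b1 and Cox7a2, the common forms of subunits 6B and 7A, rose from forebrain to hindbrain by 0.44 ± 0.060 and 0.45 ± 0.091, and Cox7a2l, which is linked to the joining of complexes III and IV, by 0.17 ± 0.062 (adjusted p = 0.0275), a call lost in 7 alternatives. Cox4i1, the common form of subunit 4, was lower in midbrain than in forebrain (-0.38 ± 0.071, adjusted p = 0.00152) and higher in hindbrain than in midbrain (0.53 ± 0.071, adjusted p = 1.91e-05). Its lung form Cox4i2 stayed between 0.494 and 1.98 CPM and Ndufa4l2 between 0.732 and 2.58 CPM in all libraries. The genes of the rotor's c subunit, Atp5g1, Atp5g2 and Atp5g3, whose mature proteins are the same, rose from forebrain to hindbrain by 0.37 ± 0.071, 0.32 ± 0.075 and 0.46 ± 0.056.

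**Figure D4:**
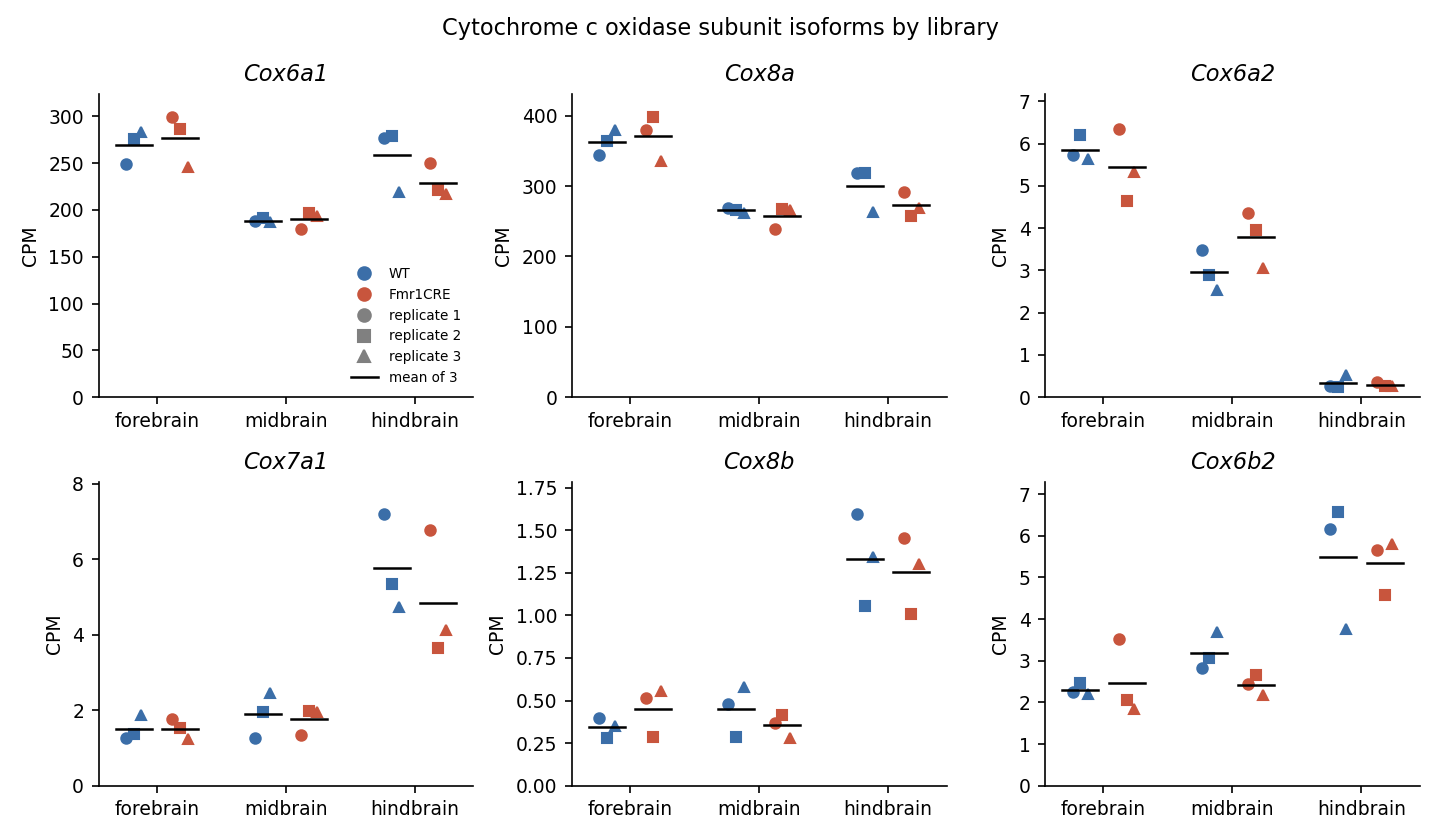
CPM (vertical axis, from 0) of 6 isoforms of complex IV subunits in each library, by region. Points are libraries, colours genotypes, shapes replicate numbers and lines means of 3. Cox6a2 falls from 4.65 to 6.35 CPM in forebrain to at most 0.514 in hindbrain, while Cox7a1, Cox8b and Cox6b2 are highest in hindbrain.

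Promoters of 2 common forms, Cox6a1 and Cox8a, and of 2 muscle forms, Cox8b and Cox7a1, are shown because their motif matches differ. They come from RefSeq on GRCm38.p6, which held promoters for 62 of the 79 nuclear members. Where a gene symbol had several promoters, only the first by start coordinate was kept and searched. Capitals mark matches, on either strand, to the palindromic core of the NRF1 motif (10 bases) and to the letters CCGGAAG (ETS), TCAAGGTCA (ERR), AAGATGGCG (YY1) and TATAAA. Cox6a1 (chr5:115348909-115349208, minus strand) held a match to the NRF1 core and to the ETS letters and Cox8a (chr19:7217567-7217866, minus strand) matches to the ETS letters. Cox8b (chr7:140900397-140900696, minus strand) held TATAAA and Cox7a1 (chr7:30183921-30184220, plus strand) none of the letters. Cox7a2, the common counterpart of Cox7a1, held none of the letters either, while the common form Cox6b1 held the ETS letters. TATAAA was also in Cox7b2, Atp5l, Ndufa3, Ndufa7, Ndufb7 and Ndufs7. Since the promoters shown were picked for their matches, no contrast between common and muscle forms is read from them.

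Cox6a1: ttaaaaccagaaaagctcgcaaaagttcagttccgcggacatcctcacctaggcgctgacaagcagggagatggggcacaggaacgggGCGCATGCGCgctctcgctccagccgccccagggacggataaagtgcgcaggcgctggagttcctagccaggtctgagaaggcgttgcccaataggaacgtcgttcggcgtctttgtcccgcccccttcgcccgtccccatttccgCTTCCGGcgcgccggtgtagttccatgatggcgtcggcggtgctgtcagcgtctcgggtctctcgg

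Cox8a: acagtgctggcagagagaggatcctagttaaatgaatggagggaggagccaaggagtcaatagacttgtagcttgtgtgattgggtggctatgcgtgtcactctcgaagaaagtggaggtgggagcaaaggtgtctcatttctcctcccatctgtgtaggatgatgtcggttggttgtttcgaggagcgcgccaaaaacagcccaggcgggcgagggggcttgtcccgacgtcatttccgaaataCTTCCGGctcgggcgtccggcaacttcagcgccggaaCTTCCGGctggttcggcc

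Cox8b: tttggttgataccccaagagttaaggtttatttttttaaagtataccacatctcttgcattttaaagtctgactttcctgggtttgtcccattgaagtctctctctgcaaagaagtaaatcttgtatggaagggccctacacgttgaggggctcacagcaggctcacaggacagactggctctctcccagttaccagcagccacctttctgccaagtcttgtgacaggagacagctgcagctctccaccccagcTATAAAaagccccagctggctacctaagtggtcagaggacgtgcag

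Cox7a1: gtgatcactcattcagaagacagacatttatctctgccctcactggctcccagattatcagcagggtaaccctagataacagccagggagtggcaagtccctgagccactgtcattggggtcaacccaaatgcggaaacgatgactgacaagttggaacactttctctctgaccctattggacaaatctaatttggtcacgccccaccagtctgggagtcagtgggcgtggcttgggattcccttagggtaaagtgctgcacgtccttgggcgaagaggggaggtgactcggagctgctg

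Over the 62 members the NRF1 core was in 5 promoters (Atp5g2, Atp5k, Cox6a1, Ndufa11 and Uqcrc1), against 0.962% of all 27025 promoters of the table. The ETS letters were in 14 members (9.08% of all promoters), the YY1 letters in 7 (1.49%), the ERR letters in 1, Atp5g3 (0.407%), and TATAAA in 7 (14.1%). The median GC content was 57.0% in the members and 52.7% in all promoters. A match describes these letters only.

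Fmr1CRE and wild-type mice were compared region by region, 3 mice against 3. The genotypes are those of the count table's labels, which Fmr1 does not check. Of the 18 deposited transcript tables, 2 were closest in counts per gene to the library they are recorded under, so labels in the deposit may conflict. The distance was not adjusted for sequencing depth, and the cause of the mismatch was not tested. In none of the 3 regions was a member called by edgeR or by DESeq2, and none was called in the counts summed per mouse or for a genotype difference that changes with region. Of all genes, 0% of 18467 were called in forebrain, 0.00543% of 18400 (1 gene) in midbrain, 0% of 19112 in hindbrain, 0.00451% of 22191 (1 gene) in the summed counts and 0% of 20363 in the interaction. At an unadjusted p under 0.05 there were 0 nuclear and 0 mitochondrial members in forebrain (5.43% of all genes), 0 and 1 in midbrain (6.17%), 5 and 0 in hindbrain (5.13%), 1 and 0 in the summed counts (3.70%) and 2 and 0 in the interaction (7.54%).

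In hindbrain the nuclear members leaned towards lower values in Fmr1CRE mice, none of them called. Of the 77 tested, 75 had a log2 fold change under 0, with a median of -0.18 against -0.0091 over all genes, 51.7% of which were under 0. In 15 members every Fmr1CRE library was below every wild-type library and in 0 above, against 5.68% and 5.22% of all genes. The summed nuclear share was 1.41%, 1.22% and 1.29% in the Fmr1CRE hindbrains and 1.58%, 1.56% and 1.33% in the wild-type ones, so that wild-type replicate 3 lay within the Fmr1CRE range. Ndufa9, an accessory subunit of complex I, was at 125, 116 and 108 CPM in Fmr1CRE and at 143, 141 and 133 CPM in wild-type hindbrain, a log2 fold change of -0.26 (unadjusted p = 0.0333, edgeR adjusted p = 0.875). Ndufs6, an accessory subunit, and Ndufs3, a core subunit of complex I, followed with -0.29 and -0.27 (unadjusted p = 0.0349 and 0.0371, edgeR adjusted p = 0.875 for both). The adjusted p of these genes reached significance in no alternative.

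Other measures were set beside the hindbrain difference. All 324 shorter protein-coding genes, a set that includes members, had a median of -0.18 in the same comparison. Of them 271 were under 0, and the longer protein-coding genes had a median of 0.0087. Of the 78 genes of cytosolic ribosomal proteins 77 were under 0, with a median of -0.22. The longer nuclear members had a median of -0.17 and the shorter ones -0.19. The choroid plexus markers summed to 1415, 1374 and 1390 CPM in the Fmr1CRE hindbrains and to 3247, 2624 and 914 CPM in the wild-type ones, in replicate order. Blood markers summed to 2397, 1058 and 1739 CPM against 2706, 1787 and 1214 CPM. Oligodendrocyte markers summed to 32662, 41528 and 34347 CPM against 29584, 33081 and 41420 CPM. Each of these sums overlapped between the genotypes. The other marker sums are not set out here by genotype in hindbrain. The part of these measures was not tested. The number of nuclear members with an unadjusted p under 0.05 was 25 without wild-type replicate 3, 21 without Fmr1CRE replicate 1, 0 without each of the other 4 mice and 11 without both replicate 3 mice, while the median stayed between -0.25 and -0.12.

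**Figure D5:**
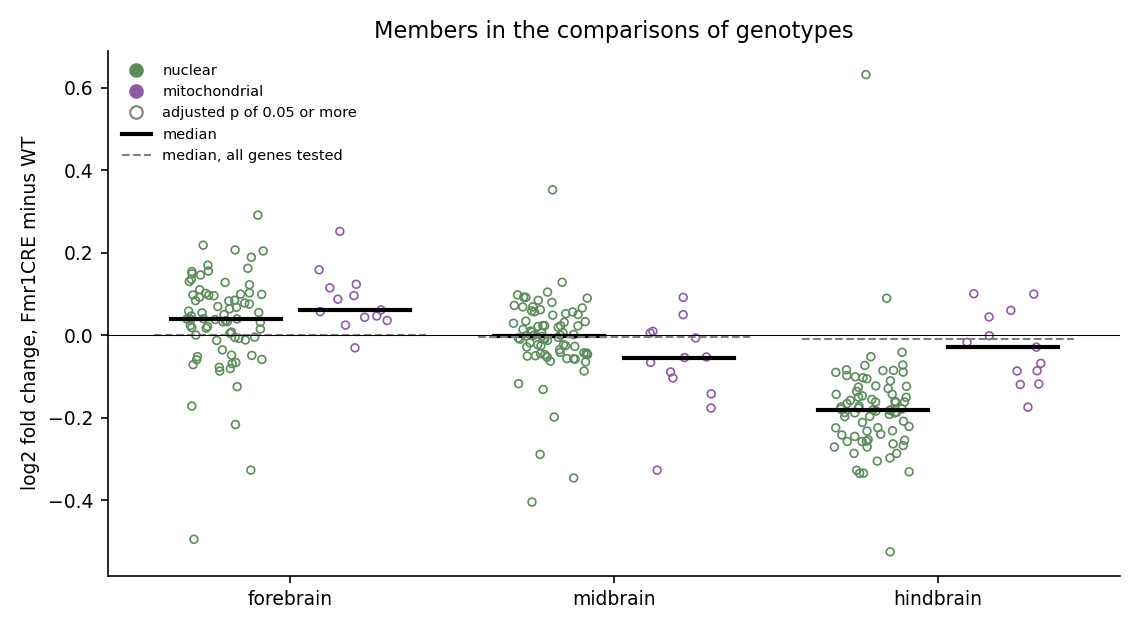
Log2 fold change, Fmr1CRE minus wild type (vertical axis), of each nuclear (green) and mitochondrial (purple) member in the 3 regions. All points are open because none passed an adjusted p of 0.05. Black lines are medians of the members, with -0.18 for the nuclear genes in hindbrain, and dashed lines medians of all genes tested.

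In forebrain 54 of 76 nuclear members were above 0 (50.1% of all genes were), with a median of 0.040, and 12 of 13 mitochondrial members, with a median of 0.061. With 1 mouse left out the nuclear median ran from -0.016, without Fmr1CRE replicate 1, to 0.076, so that its sign was not stable, and the mitochondrial one from 0.019 to 0.13. Without both replicate 3 mice 50 of 76 nuclear members (median 0.059) and 13 of 13 mitochondrial members (median 0.18) were above 0. Of the 310 shorter protein-coding genes, members included, 213 were above 0, with a median of 0.058. The smallest unadjusted p among members belonged to Cox7c (0.133), Ndufb2 (0.175) and Ndufv1 (0.189), with log2 fold changes of 0.29, 0.21 and 0.17 and edgeR adjusted p of at least 0.806. Their unadjusted p were 0.115, 0.131 and 0.224 without both replicate 3 mice. Cox7c was at 54.7, 56.0 and 54.7 CPM in Fmr1CRE and at 34.0, 52.2 and 52.1 CPM in wild-type forebrain, with wild-type replicate 1 far below the rest. With its copies Gm12338 and Gm10012 added, Cox7c was at 205, 204 and 185 CPM against 170, 202 and 192 CPM, so that the genotypes overlapped, and the log2 fold change was 0.11.

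In midbrain 37 of 77 nuclear members were above 0 (49.0% of all genes were), with a median of -0.0017, and the 13 mitochondrial members had a median of -0.054. Neither sign was stable, since without both replicate 3 mice 62 of 77 nuclear members were above 0 and the medians were 0.073 and 0.039, and without wild-type replicate 3 they were 0.051 and 0.0023. mt-Nd4l was at 1065, 1073 and 1016 CPM in Fmr1CRE and at 1218, 1152 and 1195 CPM in wild-type midbrain. The genotypes did not overlap, and the log2 fold change of -0.18 ± 0.074 had an unadjusted p of 0.0455 and an edgeR adjusted p of 0.806. Atp5g2 was at 23.4, 27.6 and 24.3 CPM against 28.2, 29.1 and 29.1 CPM (-0.20, unadjusted p = 0.0818) and mt-Nd4 at 6651, 6897 and 6369 CPM against 7500, 7113 and 7366 CPM (-0.14, unadjusted p = 0.0864). Both were apart between the genotypes, with edgeR adjusted p of at least 0.806. The share of all genes without overlap in midbrain is not given here, so being apart is not read as a difference. With its copies added Atp5g2 was at 63.6, 74.3 and 70.6 CPM against 77.3, 76.1 and 67.5 CPM, which overlapped, and its log2 fold change was -0.083. The unadjusted p of mt-Nd4l, Atp5g2 and mt-Nd4 were 0.162, 0.279 and 0.301 without both replicate 3 mice. The parvalbumin neuron markers summed to 421 to 477 CPM in Fmr1CRE and 618 to 685 CPM in wild-type midbrain. They were named after their values were seen, and neither these sums nor their part in the values above was tested.

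With the regions summed for each mouse 75 of 78 nuclear members were under 0 (49.8% of all genes were), with a median of -0.062, and the mitochondrial median was 0.016. Without both replicate 3 mice 10 of 78 nuclear members were above 0, in place of 3, with a median of -0.057, and the mitochondrial median was 0.11. With 1 mouse left out the mitochondrial median ran from -0.044 to 0.058. Without Fmr1CRE replicate 1 the count of nuclear members at an unadjusted p under 0.05 was 20, and it was 0 without each of the other 5 mice. Atp5g2 had the smallest unadjusted p (0.0356, log2 fold change -0.15), before Ndufa9 (0.0642, -0.13) and Cox4i2 (0.0694, -0.44), all with an edgeR adjusted p of 0.998. Without both replicate 3 mice their unadjusted p were 0.137, 0.137 and 0.173, and with its copies added that of Atp5g2 was 0.255. The interaction of genotype and region had 14 nuclear members at an unadjusted p under 0.05 without wild-type replicate 3 (the 14 are out of 78 tested) and 6 without both replicate 3 mice.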

How the data were processed

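Poly(A) RNA of 18 brain samples was sequenced in single-end reads of 50 bases. Per the submitters' processing notes, Salmon 0.14.0, DESeq2 1.30.1 and the mm10 build were used, and the study names bcbio_nextgen. The authors deposited 1 table of whole-number counts per gene, which was the table tested. The deposited transcript tables hold Salmon's estimated counts and were used only pooled, for transcript lengths, since 2 of the 18 were closest to the library they are recorded under. A deposited table of variance-stabilised values was not used. The strand setting of the counting is not given in the sources used here. Genes without a symbol (105, with 0.0438% of counts) were kept in the fits.

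Counts were scaled by TMM and filtered by filterByExpr, and tested by edgeR's quasi-likelihood test (edgeR 4.0.16, limma 3.58.1, R 4.3.3) with Benjamini-Hochberg adjustment over all genes tested. Regions were compared in 1 fit of 18 libraries, and genotypes within each region, in counts summed per mouse and as an interaction with region. CPM values are TMM-scaled. Scripts were tested on simulated data first. The smallest library had 22455512 counts. The labels' extraction protocol gives 3 biological replicates a genotype from the same litter. Results were recomputed with scaling on nuclear genes, with DESeq2 1.42.0 as the test or for its size factors alone, no filter, the mouse or replicate number as a block, 1 fit of all libraries, each mouse left out, both replicate 3 mice left out and each genotype alone. Adding near-identical copies to their gene was chosen after seeing the data. The regions of a mouse are paired because they come from the same animal, and deviations from group means within a mouse correlated at r = -0.17 to 0.18, with -0.17 to -0.052 for the replicate 3 forebrains. Replicate numbers shared between the genotypes only name mice (r = -0.17 to 0.078).

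Named were the mitochondrial genes, the isoform families, up to 5 nuclear members in each direction per comparison of regions with the largest called changes without overlap, the 3 members with the smallest p in each genotype comparison, and the 5 highest and 5 lowest nuclear levels per length. Members and lists were chosen with earlier results of these data known, and the divisions of complex I and ATP synthase, the split by length and the motifs were added with results in view. pandas 2.3.3, numpy 2.4.6 and matplotlib 3.10.9 were used for tables and figures.

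One marker gene of the forebrain, and the summed forebrain markers that include it, are not reported here.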

Additional observations from a re-analysis of the deposited data

How the results depend on the processing

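Of 226 recomputed counts of called members 211 stayed within 1.5 times, 13 were weaker and 2 stronger. The 226 include the comparisons of genotypes and the interaction, where the count was 0 and stayed 0 with 1 mouse left out. The share that stayed is therefore no measure of how stable the counts between regions were. Of 200 medians 197 moved by less than the spread. No gene named here turned its direction in a comparison where it was called or named. Medians of uncalled members between genotypes did change sign with 1 mouse left out, the nuclear ones in forebrain (-0.016 to 0.076) and midbrain (-0.030 to 0.051) and the mitochondrial ones in midbrain (-0.093 to 0.0023), in hindbrain (-0.14 to 0.075) and in the summed counts (-0.044 to 0.058). The mitochondrial count between hindbrain and forebrain (1) was 0 with no filter, 0 with the wild-type libraries alone, 0 with the Fmr1CRE libraries alone, 2 without both replicate 3 mice and 0 to 2 with 1 mouse left out. The nuclear count between midbrain and forebrain (21) was 11 with no filter, 6 with the wild-type and 2 with the Fmr1CRE libraries alone, 9 to 19 with 1 mouse left out (9 without wild-type replicate 2, 10 without wild-type replicate 1, 12 without Fmr1CRE replicate 2, 14 without Fmr1CRE replicate 1) and 31 by DESeq2. The mitochondrial count there (12) was 5 with the Fmr1CRE libraries alone. Fits of 1 genotype use fewer samples, and the cause of the other shifts was not tested. The nuclear median between hindbrain and forebrain was 0.57 in wild-type mice alone, and that between hindbrain and midbrain 0.70 in wild-type and 0.50 in Fmr1CRE mice alone. With the mouse as a replicate block 68, 17 and 70 nuclear and 1, 12 and 12 mitochondrial members were called in the 3 comparisons of regions. With the replicate number as a block 0 members were called between genotypes in hindbrain, with 16 nuclear ones at an unadjusted p under 0.05. Of 1140 recomputed calls of single genes 86 were lost. These cover only genes named here, in the comparisons where they were called or named, a limit set after seeing them. Called members that are not named here are not among the 1140, and the directions of uncalled members were not read. With 3 mice a genotype, differences smaller than the spread between mice may have gone undetected. The smallest detectable difference was not computed.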

Other observations

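Further lists around the respiratory chain were counted in the comparisons of regions with edgeR's test, with medians as log2 fold changes. Of all genes 25.3% were called higher and 26.4% lower in hindbrain than in forebrain, 9.96% and 9.38% in midbrain than in forebrain, and 24.0% and 25.1% in hindbrain than in midbrain. Of 14 assembly factors of complex I 8 were higher in hindbrain than in forebrain (median 0.26), 2 lower in midbrain than in forebrain (median -0.029) and 9 higher in hindbrain than in midbrain (median 0.27). Of 28 assembly factors of complexes III to V 13 were higher and 3 lower (median 0.24), 2 higher and 4 lower (median -0.12) and 15 higher and 2 lower (median 0.27) in the same order.

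Enzymes of the citric acid cycle, which supply the chain with NADH and succinate, had 8 of 13 higher in hindbrain than in forebrain (median 0.33), 3 higher in midbrain than in forebrain (median 0.12) and 6 higher and 2 lower in hindbrain than in midbrain (median 0.19). Of 17 genes of glycolysis 5 were higher and 5 lower (median 0.019), 4 higher and 0 lower (median 0.14) and 3 higher and 9 lower (median -0.18). The 8 nuclear regulators of mitochondrial biogenesis had 1 higher and 2 lower (median -0.078), 1 higher (median -0.00065) and 1 higher and 4 lower (median -0.23).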
